A study of Arabidopsis thaliana with 4 samples.

Results

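The calmodulin-like (CML) genes of Arabidopsis thaliana were followed in whole seedlings on 4 arrays. The labels assign 2 arrays to Col-0, the wild type, and 2 to CDB1 knockout seedlings, whose genetic variation they call complete and whose background is also Col-0. Members were all probe sets annotated with exactly 1 gene symbol made of CML and a number. This gave 7 genes of the 13350 with a symbol of their own on the array, each read by 1 probe set: CML23, CML30, CML37, CML38, CML41, CML42 and CML43. Any CML genes listed under other symbols, or read by the 8730 probe sets with no listed symbol, were not counted as members. Both groups were grown alike, on plates at 20 °C with 80% humidity and 16 h of light a day, to developmental stage 1.02. Total RNA is given as the molecule, biotin as the label and Affymetrix ATH1 as the array. The labels state neither the knockout allele nor whether replicates were separate cultures, so p-values rest on a spread between arrays that may be technical. No annotation used here ties the name CDB1 to a probe set, so the loss of its transcript was not checked.

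Calmodulin-like proteins are small calcium sensors. Like calmodulin they carry EF-hand loops that bind calcium and change shape on binding, and the changed surface engages target proteins. Plants have a far larger CML family than animals, and many CML transcripts are induced within minutes by touch, wounding, pathogens or low oxygen, so that transcript level is itself one of the layers of calcium signalling.

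None of the 6 tested CML genes passed the test between knockout and wild type, and CML23 came nearest to the threshold. As folds of signal + 16, CML23 was 2.13-fold lower in the knockout and CML38 was 1.43-fold lower. On the log2 scale CML41, CML43 and CML30 lay above 0 and CML42 just below 0. The test was limma on log2(signal + 16), fitted on 15924 probe sets whose mean signal reached a brightness floor of 19.5, with Benjamini-Hochberg adjustment over all of them and a threshold of 0.05. Of the 7 members, 6 reached the floor and were tested, and 0 passed, against 0.320% of all tested probe sets. At an unadjusted p under 0.05 the count was 2 of 6, both lower in the knockout, against 5.24% of all tested probe sets in either direction and 2.47% in this direction. The median log2 fold change of the 6 was -0.018, with 3 above and 3 below 0, and over all tested probe sets it was -0.015. The median size of the change, regardless of sign, was 0.303 for the 6 and 0.105 over all tested probe sets. With so few genes the value of 0.303 is set by CML41 (0.27) and CML43 (0.33). The 95% confidence interval of each includes 0, and the change of CML43 rested on wild type replicate 1.

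**Figure D1:**
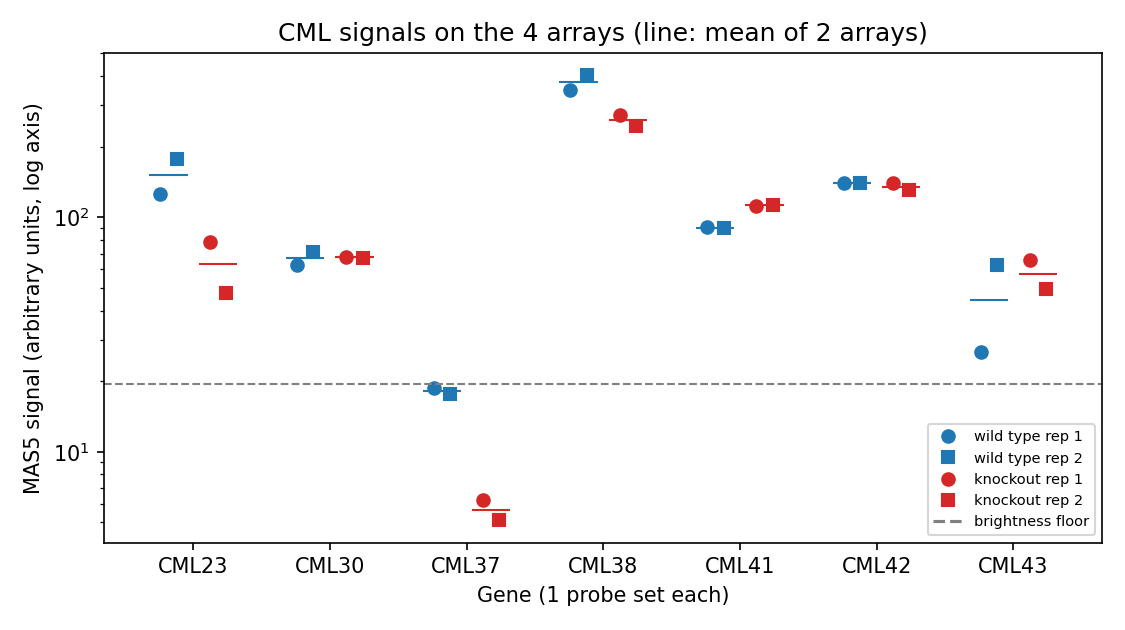
MAS5 signal (arbitrary units, log axis) of each CML probe set on the 4 arrays. Blue marks are the 2 wild type arrays and red marks the 2 knockout arrays, short lines are means of 2 arrays, and the dashed line is the brightness floor of 19.5. CML23, CML37 and CML38 are lower on both knockout arrays, CML41 is higher on both, and CML30, CML42 and CML43 overlap.

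Signals are given in arbitrary units as the authors deposited them. Probe sets differ in how strongly they bind their transcripts, so the signals of different genes are listed side by side and not ranked as transcript amounts. In the wild type the mean signals of the 7 probe sets ran from 18.2 for CML37 to 377 for CML38. In bulk RNA of whole seedlings, fewer cells of a type and less RNA per cell cannot be told apart.

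CML23 is a close relative of the touch-induced CML24 (TCH2), and the pair is known for roles in nitric oxide accumulation and flowering time. It read 126.2 and 176.7 in the wild type, against 78.6 and 47.6 in the knockout. The groups did not overlap, but arrays of the same group lay far apart, with wild type replicate 2 the highest and knockout replicate 2 the lowest. The means were 151 ± 35.7 (SD, n = 2) and 63.1 ± 21.9 (SD, n = 2), so the knockout differed by -1.09 on the log2 scale (SE 0.208), with a 95% confidence interval of -1.55 to -0.63 and a limma adjusted p of 0.0732 (0.000217 to 0.518 over the alternatives). Only 0.0879% of all tested probe sets had a change as low or lower. The gap between the replicates of CML23 was 0.438 in the wild type and 0.573 in the knockout on the log2 scale, where the 500 tested probe sets nearest in brightness had median gaps of 0.172 and 0.152. A gap as wide as that of CML23 in the knockout was seen for 2.29% of all tested probe sets.

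The call on CML23 turned on the model and on single arrays. With all 4 arrays its limma adjusted p was 0.00104 with a block for replicate number and 0.518 with no filter. It passed without wild type replicate 1 (log2 fold change -1.31, limma adjusted p = 0.0133) and without knockout replicate 1 (-1.38, limma adjusted p = 0.0315). It did not pass without wild type replicate 2 (-0.87, limma adjusted p = 0.162) or without knockout replicate 2 (-0.81, limma adjusted p = 0.347). The direction was the same in all 4 fits with 1 array left out, as it had to be where the groups do not overlap. In these fits the lone array of a group is assumed to vary like the arrays of the other group.

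CML38 is one of the core genes switched on by low oxygen and is also induced by wounding, and its product enters cytosolic granules linked to RNA silencing. Its signal was 350.4 and 403.1 in the wild type and 273.7 and 244.3 in the knockout. Both knockout arrays lay below both wild type arrays, and the replicate gaps of 0.194 and 0.154 were near those of probe sets of similar brightness (0.141 and 0.157). Means were 377 ± 37.3 (SD, n = 2) and 259 ± 20.8 (SD, n = 2). The difference was -0.51 on the log2 scale (SE 0.142), with a 95% confidence interval of -0.83 to -0.20. The limma adjusted p was 0.355. In other limma fits on all 4 arrays it ran from 0.311, with a filter at the 50th percentile, to 0.592, with no filter. Only the crossed replicate block, added after seeing the data, brought the limma adjusted p of CML38 under 0.05, to 0.0333. A change as low or lower was seen for 0.854% of tested probe sets. With 1 array left out it ranged from -0.61 to -0.42 and did not pass in any of these 4 fits.

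CML37 is induced by wounding and is known as a positive regulator of jasmonate-dependent defence against insect feeding. It read 18.7 and 17.7 in the wild type and 6.2 and 5.1 in the knockout. All 4 signals lay below the brightness floor, so CML37 was not tested and no fold is given. The knockout values lay below both wild type values, which were close together. With no filter on dim probe sets CML37 had a limma adjusted p of 0.375, and its unadjusted p was 0.0014. Its mean over the 4 arrays was 11.9, and that of the dimmest tested member, CML43, was 51.0.

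CML41 is induced by bacterial flagellin and acts at plasmodesmata, the channels between plant cells, where it takes part in their closure by callose. It was 91.0 and 89.7 in the wild type and 111.9 and 112.9 in the knockout. Replicates lay close together and the groups did not overlap, with the knockout 1.21-fold higher. On the log2 scale the difference was 0.27 (SE 0.139), its 95% confidence interval ran from -0.03 to 0.58, and the limma adjusted p was 0.998. Its own replicate gaps, 0.0176 and 0.0112 on the log2 scale, were much narrower than the medians for similar brightness (0.166 and 0.140), and limma replaces so small a spread by one drawn towards that of probe sets of similar brightness. With 1 array left out the change ranged from 0.26 to 0.28.

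**Figure D2:**
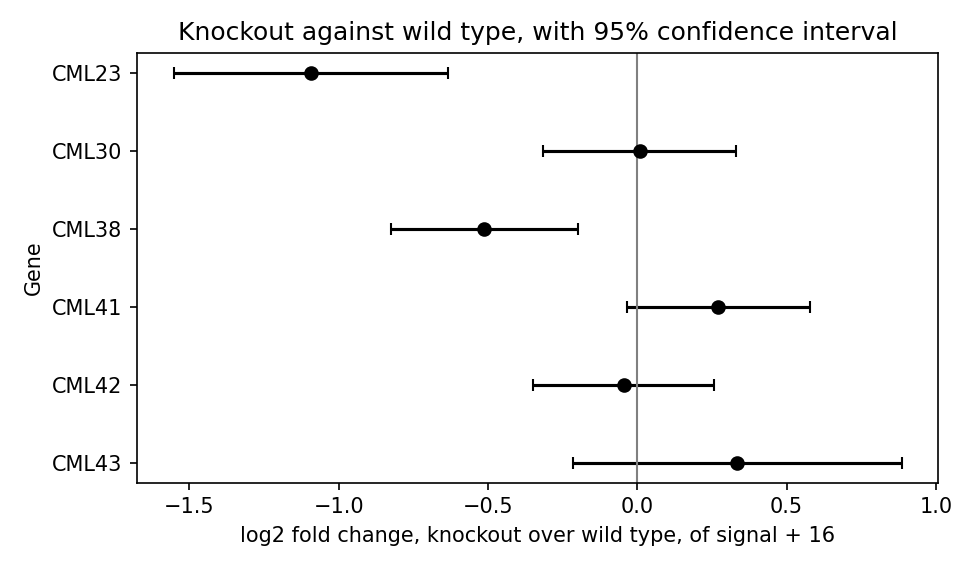
Log2 fold change of signal + 16, knockout over wild type, for the 6 tested CML genes, with the 95% confidence interval of limma. The intervals of CML23 and CML38 lie below 0, those of the other 4 genes include 0, and no gene passed after adjustment over all tested probe sets.

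CML43 is induced by pathogens and has been tied to the hypersensitive cell death response. Its signal was 26.7 and 62.4 in the wild type and 65.5 and 49.3 in the knockout. The groups overlapped, and wild type replicate 1 stood far below the other 3 arrays. The means were 44.6 ± 25.2 (SD, n = 2) and 57.4 ± 11.5 (SD, n = 2), and the log2 fold change of 0.33 had a 95% confidence interval of -0.22 to 0.89 (limma adjusted p = 0.998). A gap between wild type replicates as wide as that of CML43, 0.877, was seen for 0.578% of tested probe sets. The change rested on wild type replicate 1: without that array it was -0.10, and without wild type replicate 2 it was 0.77.

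CML42 takes part in trichome branching, and plants without it are known to be more resistant to insect feeding. It read 140.4 and 139.5 in the wild type and 139.8 and 130.5 in the knockout. One knockout array lay within the wild type range and the other below it, and the log2 fold change was -0.046 (95% confidence interval -0.35 to 0.26). CML30, whose product is found in mitochondria, read 62.8 and 71.3 in the wild type. The knockout values were 68.0 and 66.9, so both knockout arrays lay between the wild type arrays. Its log2 fold change was 0.0088 (95% confidence interval -0.31 to 0.33). These intervals hold changes in either direction, so equal levels are not shown for either gene.

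Both knockout arrays lay on 1 side of both wild type arrays for 4 of the 7 members, 3 lower (CML23, CML37, CML38) and 1 higher (CML41). Over all 22746 probe sets this was so for 30.6%, and 17.1% were lower on both knockout arrays. Among the 6 tested members it was 3, against 31.9% of all tested probe sets. With so few arrays no exact permutation test can reach 0.05, and none was made. Knockout replicate 1 read above knockout replicate 2 for 6 of the 7 members. Among the 6 tested members 83.3% had knockout replicate 1 above replicate 2, against 49.9% of all tested probe sets.

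**Figure D3:**
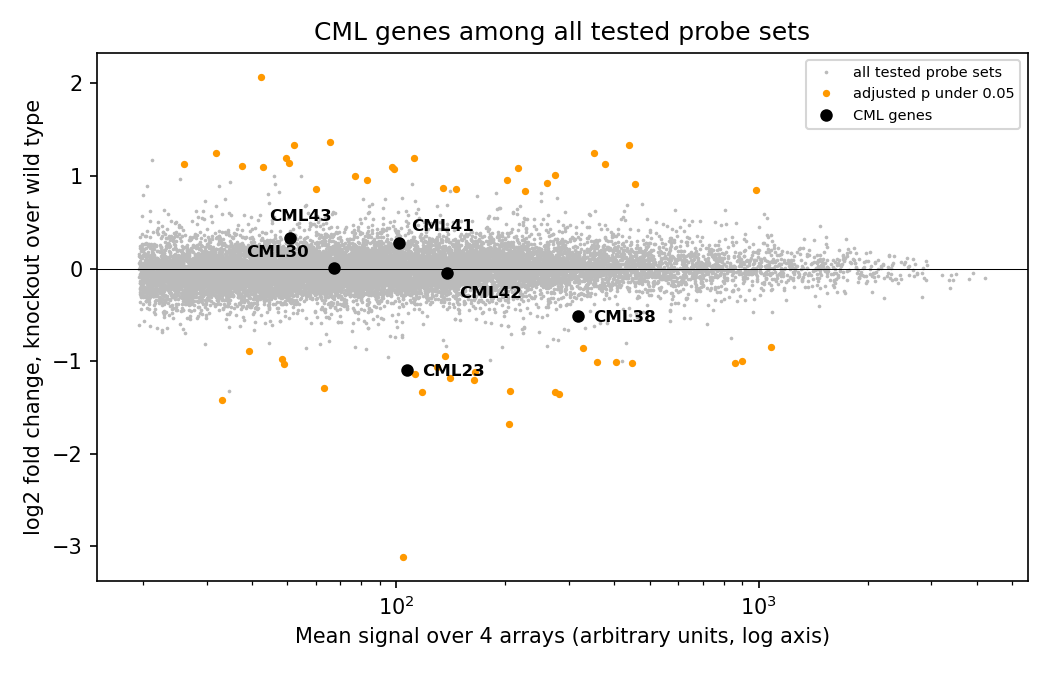
Log2 fold change, knockout over wild type, against mean signal over the 4 arrays (log axis) for all 15924 tested probe sets (grey), those with a limma adjusted p under 0.05 (orange) and the 6 tested CML genes (black). CML23 lies at the level of the orange probe sets that are lower in the knockout, without passing the test itself, and CML38 lies at the lower edge of the grey cloud.

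The 4 arrays were alike as a whole, with correlations across tested probe sets of 0.977 between the wild type arrays, 0.982 between the knockout arrays and 0.975 to 0.984 for pairs across groups, so the groups did not stand apart. The labelled tissue was checked with markers of shoot and root. In the shoot list 2 of 8 markers had a named probe set, LHCB4.1 and RCA, and their summed signal was 4190 and 3859 in the wild type and 4494 and 4493 in the knockout. In the root list 3 of 8 had one, EXPA7, EXPA18 and PYK10, with sums of 3046 and 2699 in the wild type and 2659 and 2976 in the knockout. These sums are almost all PYK10. EXPA7 read 28.7 and 50.3 in the wild type and 55.9 on each knockout array (log2 fold change 0.40, limma adjusted p = 0.983). EXPA18 read 51.0 and 49.5 against 58.5 and 60.9 (log2 fold change 0.19, limma adjusted p = 0.998). Both were thus higher on both knockout arrays without passing the test, as was LHCB4.1 of the shoot list (log2 fold change 0.32, limma adjusted p = 0.840), while PYK10 and RCA overlapped between the groups. The part of the share of shoot or root in the CML values was not tested. No flower or seed marker on the lists had a named probe set.

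The members lie on all 5 chromosomes in the TAIR10.1 annotation: CML23 and CML38 on chromosome 1, CML30 on chromosome 2, CML41 on chromosome 3, CML42 on chromosome 4, and CML37 and CML43 on chromosome 5. CML38 is next to AT1G76640, for which RefSeq lists the synonym CML39, a name it lists for CML37 as well. AT1G76640 read 2.4 on each wild type array and 6.3 and 1.8 on the knockout arrays, all below the brightness floor. CML23 lies between the anthocyanin regulator gene MYB90 and the calmodulin gene CAM4, neither of which has a probe set with exactly 1 gene symbol. Of the 14 genes flanking the 7 members, 11 had a named probe set and 7 were tested. Of these 0 passed, against 0.320% of all tested probe sets. At an unadjusted limma p under 0.05 there was 1 of these 7 tested genes, against 5.24% of all tested probe sets. This was AT2G15690 next to CML30, with a log2 fold change of -0.95 and a limma adjusted p of 0.197.

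Calcium signalling around the CML genes runs from channels that let calcium in, through sensors and kinases that read it, to pumps that remove it. The annotation limited what could be seen of it. Of 10 lists with calmodulins, calcineurin B-like sensors and their kinases, calcium-dependent kinases, calmodulin-binding proteins, pumps, channels, annexins and touch-induced genes, 8 had no gene named on the array, so their transcripts may be read by unnamed probe sets. In the list of calcium-permeable channels 8 genes were named, all glutamate receptor-like (GLR) channels, and 6 were tested. Of these 0 rose and 0 fell in limma, where 0.320% of all tested probe sets passed. Their median log2 fold change was -0.039.

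GLR3.3, a channel that carries wound signals from leaf to leaf, had the largest difference among them. It read 50.8 and 47.8 in the wild type and 90.9 and 62.1 in the knockout. Both knockout arrays were higher, with a log2 fold change of 0.49 and a limma adjusted p of 0.722. GLR3.3 was the 1 of 6 tested GLR genes at an unadjusted limma p under 0.05, against 5.24% of all tested probe sets. ATGLR1.2 followed with a log2 fold change of 0.26, and GLR3.6, which acts with GLR3.3 in wound signalling, with -0.18. In the list of touch-induced genes 1 gene was named, the zinc finger repressor gene STZ. STZ read 1116.9 and 1194.1 in the wild type and 573.9 and 552.6 in the knockout. It passed the main test, with a log2 fold change of -1.02 (limma adjusted p = 0.0101). With no filter on dim probe sets 0 probe sets passed, so STZ did not pass there. Its values in the other alternatives are not reported here. CML23, at -1.09, had a difference of similar size from STZ's but with an SE of 0.208 against 0.128.

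**Figure D4:**
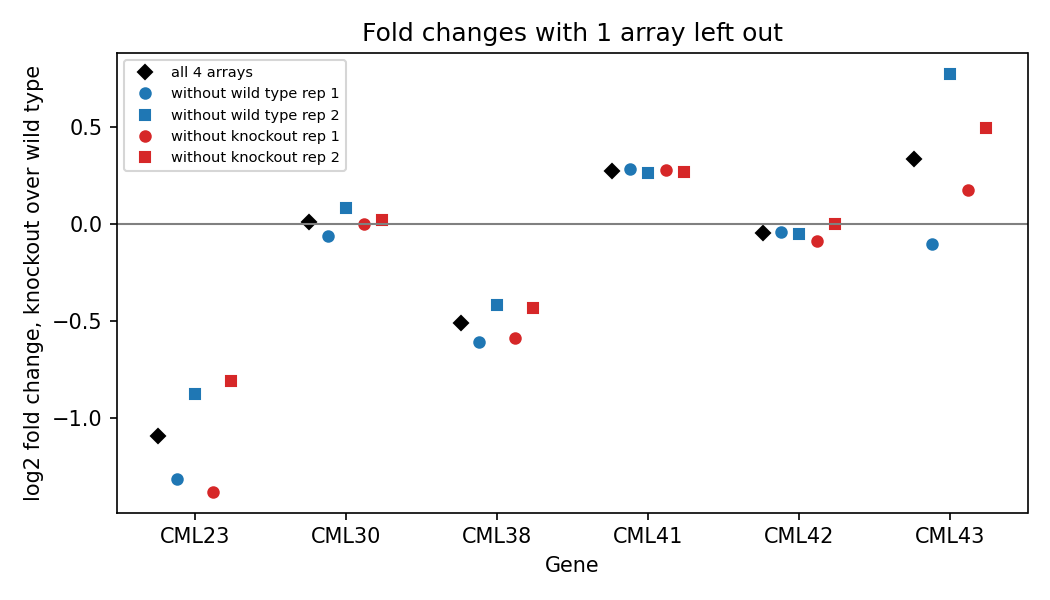
Log2 fold change, knockout over wild type, of the 6 tested CML genes with all 4 arrays (black) and with 1 array left out (blue, a wild type array; red, a knockout array). CML23 runs from -1.38 to -0.81 and CML38 from -0.61 to -0.42, CML41 hardly moves, and CML43 runs from -0.10 to 0.77.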

How the data were processed

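The deposited table holds 1 linear intensity per probe set and array, a signal the authors made with MAS5, per the submitters' processing notes. No source used here gives the MAS5 settings or detection calls. Array medians were 47.9 to 50.6. Precision is limited by the 2 arrays a group.

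The 64 control probe sets were set aside. Of the other 22746, 13513 had 1 gene symbol, 503 several and 8730 none listed here. A probe set counts as named here only where it has exactly 1 symbol. Gene numbers updated the symbols through RefSeq (TAIR10.1), which added no CML gene. Probe sets below the 30th percentile of mean signal were left out. Signals were tested as log2(signal + 16), which understates changes of dim genes, with limma 3.58.1 in R 4.3.3 (lmFit, eBayes with an intensity trend, two-sided). The procedure was tested on simulated data.

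Values on all arrays are given for CML genes. In the other calcium lists they are given for STZ, which passed the test, and for GLR3.3, which had the largest change among the channels. The members and lists were chosen with earlier results of these data known. Alternatives covered normalization, pseudocount, filter, trend, replicate blocks, thresholds and single arrays. No sequences were used here.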

Additional observations from a re-analysis of the deposited data

How the results depend on the processing

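The count of 0 CML genes past the limma test was also found without the eBayes trend, with pseudocounts of 1 and 64, with no filter or one at the 50th percentile, after median centring and after quantile normalization. It was 1 at an adjusted p of 0.1 (CML23), 2 at an unadjusted p of 0.05, and 0 to 1 with 1 array left out. In the labels, arrays of the 2 groups with the same replicate number share only that number. Across tested probe sets the differences between replicates correlated at -0.301 between the groups. Wild type replicate 1 thus tended to vary with knockout replicate 2, and wild type replicate 2 with knockout replicate 1. CML23 had its higher wild type array in replicate 2 and its higher knockout array in replicate 1. The crossed replicate block pairs the arrays in this way, and what the pairs share was not tested. With the replicate block the count was 1 (CML23) and all calls went from 51 to 89, and with a crossed replicate block, added after seeing the data, it was 2 (CML23 and CML38) and all calls were 195. Without wild type replicate 1, wild type replicate 2, knockout replicate 1 or knockout replicate 2, all calls were 87, 61, 23 and 20, and with no filter 0. The median log2 fold change of the CML genes was -0.085 to 0.016 with 1 array left out, and 4 genes without overlap became 5 to 7, since fewer arrays overlap less often. CML23, CML38, CML41 and CML42 kept their sign in all 13 alternatives, but many of these could not have changed it. The filters, the trend and the replicate blocks leave the fold change itself as it was. For CML23, CML38 and CML41 the groups did not overlap, so leaving out 1 array could not turn the sign. The change of CML42 stayed close to 0, from -0.090 to -0.0014. CML30 (-0.065 to 0.083) and CML43 (-0.10 to 0.77) changed sign with 1 array left out. Each gene has 1 probe set, so averaging probe sets could change nothing and was not run.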
